A study of Homo sapiens with 4 samples.

Results

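The S100 calcium-binding family was examined through 10 of its genes, S100A2, S100A4, S100A6, S100A7, S100A8, S100A9, S100A10, S100A11, S100A14 and S100A16, which were found by their Ensembl identifiers among the 50653 rows of the deposited expression table. RNA was sequenced from a pair of cell lines derived from human breast cancer, MDA-MB-468 and BT-20, each carrying either a control shRNA or an shRNA that silences quinolinate phosphoribosyltransferase (QPRT), an enzyme of NAD synthesis from tryptophan. According to the study's methods, the QPRT shRNA was carried by pLKO.1-puro and the control shRNA by a lentiviral vector, and cells were transduced and selected with puromycin; selection of the control cells is not spelled out. Each combination of line and shRNA was 1 library, 4 in all, and no library has a replicate. The table holds FPKM, a count of fragments corrected for transcript length and for the depth of the library, so that levels can be compared between genes. The libraries had been scaled to between 10321996 and 10945948 fragments.

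S100 proteins are small proteins with a pair of EF-hand motifs that mostly bind calcium as dimers and then dock onto target proteins such as annexins, myosin heavy chain and cell surface receptors. Most of their genes lie side by side on the long arm of chromosome 1, beside the genes of the cornified envelope of skin. Several are abundant in epithelia and in cancers arising from them, S100A8 and S100A9 are also the main cytosolic proteins of neutrophils, and S100A7 is known from psoriatic skin.

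The targeted gene went the way of the labels, with an FPKM of QPRT of 249 and 40.5 in BT-20 against 117 and 18.3 in MDA-MB-468, control shRNA first. Over 9 marker genes of breast epithelium (keratins, EPCAM, CDH1 and EGFR) the summed FPKM was 7214 to 10120, although the basal keratins KRT14 and KRT17 did not exceed 0.33 and 2.76 in the BT-20 libraries. Of the receptor genes, the progesterone receptor gene PGR was listed at 0 in all 4 libraries, but ESR1 and ERBB2 were not. ESR1 had 5.51 and 5.76 in BT-20 against 1.87 and 1.05 in MDA-MB-468, control shRNA first. ERBB2 had 129 and 122 in BT-20 against 58.1 and 50.7 in MDA-MB-468. Markers of other cell types were also listed above 0. Summed over 10 genes of gut epithelium, FPKM was 31.8 and 13 in BT-20 against 80.7 and 16.9 in MDA-MB-468, control shRNA first, and over 5 plasma cell genes it was 32.2 and 15.2 in BT-20 against 76.0 and 15.1 in MDA-MB-468. The BT-20 QPRT shRNA library held, in addition, low levels of genes that otherwise marked MDA-MB-468. For 31 genes with at least 20 FPKM in both MDA-MB-468 libraries and at most 0.1 FPKM in the BT-20 control shRNA library, a choice made after the values were seen, its level had a median of 0.511% of that in MDA-MB-468. For the 13 genes chosen the same way with the BT-20 libraries exchanged, the median was 0.0724%.

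All 10 genes lie on chromosome 1 and are annotated as protein-coding in GENCODE 29 (GRCh38). S100A10 spans 151982915 to 151994390 and S100A11 spans 152032506 to 152047907, both on the minus strand and apart from the rest. The others lie together, from S100A9 at 153357854 to 153361027, the only member on the plus strand, through S100A8 at 153390032 to 153391188, S100A7 at 153457744 to 153460701, S100A6 at 153534599 to 153536244, S100A4 at 153543613 to 153550136, S100A2 at 153561108 to 153567890 and S100A16 at 153606886 to 153613145, to S100A14 at 153614255 to 153616986. Their mean transcript lengths ran from 461 bases for S100A7 to 961 bases for S100A16. Reads could be shared with near copies for S100A7, of whose 50-base stretches 14.2% also occur in its neighbour S100A7A, and for S100A11, with 1.9%. For the other 8 genes the share was 0.0. S100A6 shares 23 exonic bases with an antisense transcript on the opposite strand.

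S100A2, S100A4, S100A7 and S100A8, described below, differed at least 2-fold between the shRNAs of a line. The ratios of S100A9 were at least 1 log2 unit apart between the lines. S100A6, 1.74-fold higher with QPRT shRNA in BT-20, met neither mark and is not shown. For the genes that met a mark, the 250 bases before the start sites are given. They are from RefSeq (GRCh38.p14), written 5′ to 3′ in the direction of the gene, and capitals mark matches to the TATA box TATAAA, the AP-1 motif TGANTCA and the C/EBP motif TTNNGNAA on either strand. RefSeq lists more than 1 start for S100A2 and S100A8. For S100A2 the most upstream is shown and for S100A8 the start with a TATA box just before it.
S100A2, chr1:153565845-153566094, minus strand: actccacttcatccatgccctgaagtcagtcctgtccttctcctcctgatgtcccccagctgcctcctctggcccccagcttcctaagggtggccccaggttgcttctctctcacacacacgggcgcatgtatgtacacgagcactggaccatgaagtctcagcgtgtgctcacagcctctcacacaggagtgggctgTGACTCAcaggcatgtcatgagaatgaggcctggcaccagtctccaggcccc
S100A4, chr1:153545807-153546056, minus strand: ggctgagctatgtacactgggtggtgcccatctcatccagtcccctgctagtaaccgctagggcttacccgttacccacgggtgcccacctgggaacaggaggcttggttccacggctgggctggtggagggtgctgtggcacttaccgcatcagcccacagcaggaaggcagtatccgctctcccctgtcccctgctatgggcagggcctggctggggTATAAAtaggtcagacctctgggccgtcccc
S100A7, chr1:153460652-153460901, minus strand: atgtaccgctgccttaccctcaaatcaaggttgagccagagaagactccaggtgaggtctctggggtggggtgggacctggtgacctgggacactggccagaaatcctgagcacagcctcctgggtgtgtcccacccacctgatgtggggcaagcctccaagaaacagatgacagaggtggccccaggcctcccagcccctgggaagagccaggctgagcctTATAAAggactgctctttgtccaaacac
S100A8, chr1:153391074-153391323, minus strand: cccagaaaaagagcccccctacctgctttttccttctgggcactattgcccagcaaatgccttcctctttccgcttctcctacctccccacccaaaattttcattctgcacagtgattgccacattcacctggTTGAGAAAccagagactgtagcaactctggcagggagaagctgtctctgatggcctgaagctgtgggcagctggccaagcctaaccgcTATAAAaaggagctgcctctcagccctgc
S100A9, chr1:153357604-153357853, plus strand: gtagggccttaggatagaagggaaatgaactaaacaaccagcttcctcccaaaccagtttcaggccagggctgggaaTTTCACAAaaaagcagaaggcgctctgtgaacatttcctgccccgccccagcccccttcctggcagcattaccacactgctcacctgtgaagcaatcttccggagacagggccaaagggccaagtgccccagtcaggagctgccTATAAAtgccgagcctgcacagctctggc

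TATAAA occurred in the windows of 4 of the 10 genes, S100A4, S100A7, S100A8 and S100A9, and in 10.7% of the 35116 promoter windows in the table. The 10 genes have 14 windows and a gene counts if any of its windows holds a match, so the counts of genes and the shares of windows are not the same measure. In the windows shown, TATAAA began 31 bases before the start of S100A4, 28 before that of S100A7 and 29 before those of S100A8 and S100A9. TGANTCA occurred in 1 gene, S100A2, where it began 52 bases before the start, and in 6.57% of all windows. TTNNGNAA occurred in 5 genes, S100A6, S100A8, S100A9, S100A11 and S100A16, and in 33.2% of all windows. The STAT motif TTCNNNGAA, found in 6.57% of all windows, had no match in any of the 10 genes. The GC box GGGCGG occurred in S100A6, S100A9, S100A10, S100A11 and S100A16 and in 42.6% of all windows. The NF-kappa-B motif was matched in S100A14 (9.96% of all windows) and the p53 family half-site in S100A7 and S100A16 (5.57%). The last pair of GC boxes in S100A6 overlap, and a match describes letters, not a bound site.

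The 10 genes together held 0.297% of the fragments in BT-20 with control shRNA and 0.340% with QPRT shRNA, and 0.380% and 0.316% in MDA-MB-468. In every library 6 genes, S100A6, S100A9, S100A10, S100A11, S100A14 and S100A16, were at 257 FPKM or more, and at least 99.2% of listed genes were lower in each case. S100A9 was the highest of the 10 in 3 libraries and S100A6 in MDA-MB-468 with QPRT shRNA. S100A2 was the lowest in all 4. S100A4, S100A7 and S100A2 spanned the widest ranges, with the highest library 40.6, 37.9 and 14.8 times the lowest, and S100A11 the narrowest, with 1.62 times. Without replicates, no spread is available to say which neighbouring levels differ.

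**Figure D1:**
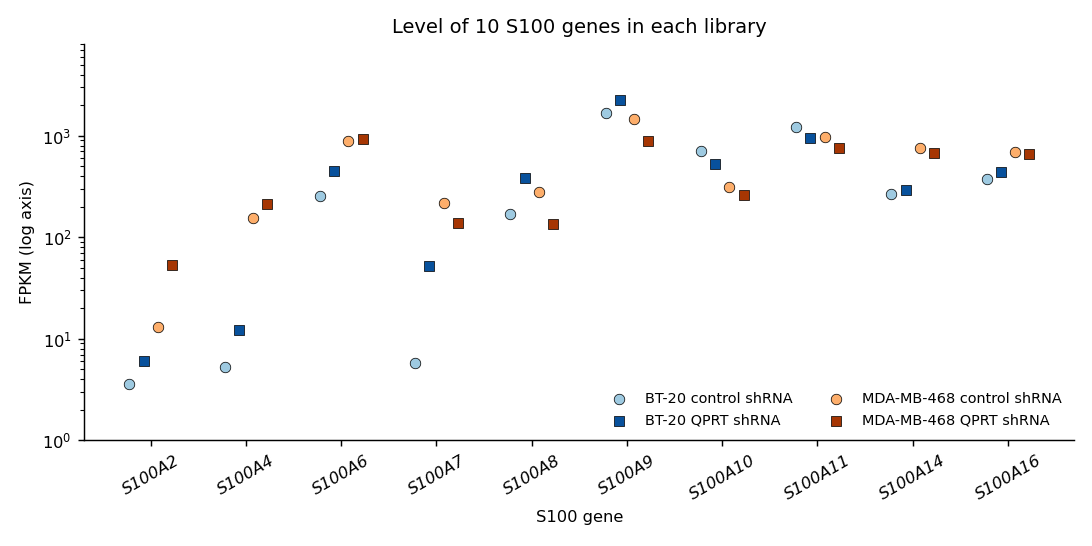
FPKM of the 10 S100 genes on a log axis, with 1 point for each library (circles, control shRNA; squares, QPRT shRNA; blue, BT-20; orange, MDA-MB-468). S100A2, S100A4 and S100A7 are low in BT-20 with control shRNA, at 3.61, 5.23 and 5.72, while S100A9 and S100A11 lie between 751 and 2260 in every library.

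Baseline levels of the family were compared between the lines first. With control shRNA, 5 of the 10 genes were at least 2-fold higher in MDA-MB-468 than in BT-20 on the log2(FPKM + 1) scale, where 18.3% of the 14321 genes tested were, and 1 was at least 2-fold lower, where 13.2% were. With QPRT shRNA the counts were 5 higher and 3 lower, beside 17.4% and 13.9% of all genes. The median difference over the 10 genes was 1.20 log2 units with control shRNA and 0.80 with QPRT shRNA, beside 0.12 and 0.068 over all genes. Between the shRNAs of a line the medians of the 10 genes were 0.53 in BT-20 against -0.22 in MDA-MB-468.

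S100A4, which binds the heavy chain of non-muscle myosin IIA and is also called metastasin, had an FPKM of 5.23 and 12.2 in BT-20 against 153 and 213 in MDA-MB-468, control shRNA first. Both MDA-MB-468 libraries lay far above both BT-20 libraries, 29.3-fold with control shRNA and 17.4-fold with QPRT shRNA. S100A7, the antimicrobial protein psoriasin, had 5.72 and 52.7 in BT-20 against 217 and 139 in MDA-MB-468, so that the gap was 37.9-fold with control shRNA and 2.64-fold with QPRT shRNA. S100A2, a protein of basal epithelial cells that binds p53, had 3.61 and 6.05 in BT-20 against 13 and 53.3 in MDA-MB-468. For all 3 genes the lines did not overlap, a pattern whose share among all genes is not given here.

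S100A6 (calcyclin), a partner of the adaptor proteins CACYBP and SUGT1, had an FPKM of 257 and 448 in BT-20 against 887 and 922 in MDA-MB-468. S100A14 had 265 and 291 in BT-20 against 761 and 670 in MDA-MB-468, and S100A16, its neighbour, had 375 and 443 against 691 and 655. All 3 were higher in both MDA-MB-468 libraries than in either BT-20 library, again with no share among all genes given. S100A10 (p11), the partner of annexin A2, went the other way, with 709 and 528 in BT-20 against 311 and 262 in MDA-MB-468, 2.28-fold lower with control shRNA and 2.02-fold lower with QPRT shRNA. S100A11, which binds annexin A1, had 1215 and 959 in BT-20 against 963 and 751 in MDA-MB-468. Here BT-20 with QPRT shRNA and MDA-MB-468 with control shRNA were nearly level.

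S100A8 and S100A9 form the heterodimer calprotectin, which binds zinc and manganese and is a ligand of the receptors TLR4 and RAGE. S100A8 had an FPKM of 171 and 384 in BT-20 against 281 and 135 in MDA-MB-468, and the lines overlapped, with MDA-MB-468 1.65-fold higher under control shRNA and 2.84-fold lower under QPRT shRNA. S100A9 had 1656 and 2260 in BT-20 against 1451 and 894 in MDA-MB-468, lower in MDA-MB-468 under both shRNAs.

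**Figure D2:**
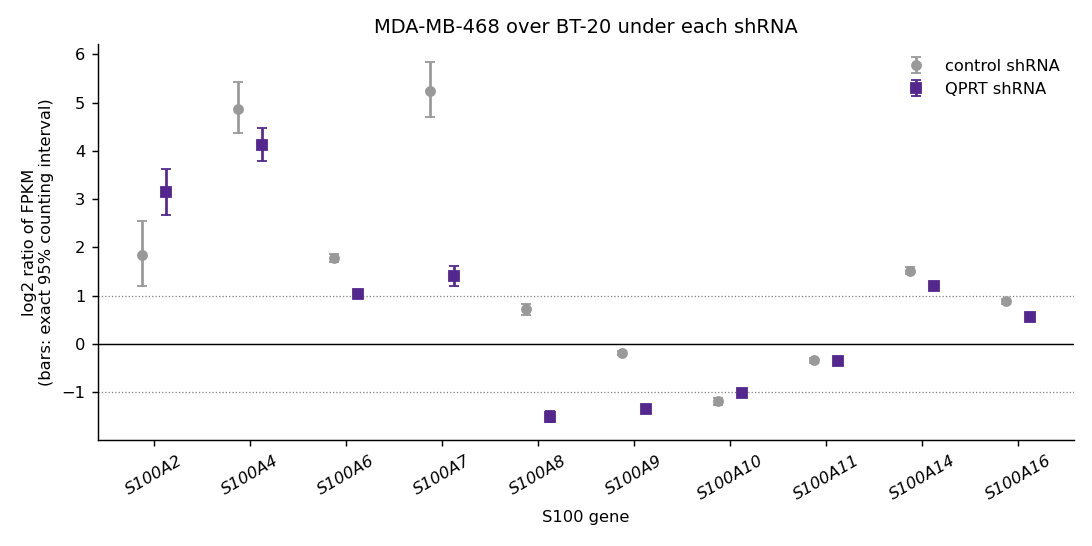
log2 ratio of FPKM of MDA-MB-468 over BT-20 for the 10 S100 genes under control shRNA (grey circles) and QPRT shRNA (purple squares), with exact 95% counting intervals; dotted lines mark 2-fold. S100A4 lies highest under QPRT shRNA, S100A7 falls from 5.25 to 1.40 between the shRNAs, and S100A8 lies above 0 with control shRNA and below 0 with QPRT shRNA.

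Over all 4 libraries, limma with the shRNA as a second term and Benjamini-Hochberg adjustment found 6 of the 10 genes higher and 2 lower in MDA-MB-468 at an adjusted p under 0.05, beside 30.7% and 24.4% of all genes tested. The log2 differences in limma were 4.32 ± 0.22 for S100A4 (SE, n = 2 libraries a line; adjusted p = 2.33e-86), 3.20 ± 0.21 for S100A7 (adjusted p = 4.22e-51) and 2.28 ± 0.25 for S100A2 (adjusted p = 8.69e-19). S100A6 (1.41), S100A14 (1.36) and S100A16 (0.72) were also higher, and S100A10 (-1.10) and S100A9 (-0.76) were lower. S100A8 and S100A11 did not pass, at -0.39 (limma adjusted p = 0.0712) and -0.34 (limma adjusted p = 0.105). The fit has 1 residual degree of freedom per gene, and each gene was given the spread of genes of like expression. These SE and p-values therefore rest on that shared spread. For S100A7 the mean joins log2(FPKM + 1) differences of 5.02 with control shRNA and 1.38 with QPRT shRNA. The shared spread does not register that gap. With the residual spread of each gene alone, an alternative added after the data were seen, none of the 10 passed, nor did any of the other genes tested.

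Silencing of QPRT was compared within each line next, as 1 library against 1, with no replicate check. In BT-20, 8 of the 10 genes were higher with QPRT shRNA, as were 56.4% of all genes tested. At 2-fold or more, 3 were higher (S100A4, S100A7 and S100A8), where 1.05% of all genes were, and 0 were lower, where 0.649% were. In MDA-MB-468, 3 of the 10 were higher by any amount, where 51.5% of all genes were. At 2-fold or more, 1 was higher (S100A2), where 1.03% were, and 1 was lower (S100A8), where 0.866% were. At 1.5-fold the counts were 5 higher and 0 lower in BT-20, beside 5.7% and 3.27% of all genes, and 1 higher and 3 lower in MDA-MB-468, beside 5.46% and 3.71%. Over all genes the median log2 ratio was 0.048 in BT-20 against 0.011 in MDA-MB-468.

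S100A7 had 28 fragments in BT-20 with control shRNA and 265 with QPRT shRNA, and 1094 and 662 in MDA-MB-468. FPKM was 9.21-fold higher with QPRT shRNA in BT-20, a log2(FPKM + 1) ratio of 3.0. The exact Clopper-Pearson 95% interval on the log2 scale, taken from the fragments and reflecting only counting error, was 2.64 to 3.82. In MDA-MB-468 it was 1.56-fold lower, a ratio of -0.64 with an interval of -0.78 to -0.50. S100A7 thus differed in opposite directions in the 2 lines. The level in BT-20 with QPRT shRNA was 29.6% of that in MDA-MB-468. The median in that library was 0.511% for genes otherwise specific to MDA-MB-468, a set to which S100A7 does not belong. The part of MDA-MB-468 transcripts in the S100A7 level was not tested. S100A7A, its near copy known as koebnerisin, had an FPKM of 0.867 and 6.75 in BT-20 against 8.63 and 6.58 in MDA-MB-468, or 16, 128, 164 and 118 fragments. Its ratios were 2.05 in BT-20 against -0.34 in MDA-MB-468, in the same directions as those of S100A7, and the 2 genes share sequence.

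S100A8 had 1047 and 2419 fragments in BT-20 against 1778 and 806 in MDA-MB-468, control shRNA first. It was 2.25-fold higher with QPRT shRNA in BT-20 (log2 ratio 1.16, interval 1.06 to 1.28) and 2.08-fold lower in MDA-MB-468 (log2 ratio -1.05, interval -1.18 to -0.94). It was the only one of the 10 genes to differ at least 2-fold in both lines, in opposite directions, as 0.0838% of all genes did. S100A9 had 10151 and 14227 fragments in BT-20 against 9162 and 5324 in MDA-MB-468. Its ratios were smaller, 0.45 (0.41 to 0.49) in BT-20 against -0.70 (-0.75 to -0.65) in MDA-MB-468. The FPKM of S100A9 was 9.71 and 5.89 times that of S100A8 in BT-20 against 5.16 and 6.62 times in MDA-MB-468. Calprotectin genes together made up 35.5% and 44.9% of the fragments of the 10 genes in BT-20 against 26.3% and 18.8% in MDA-MB-468.

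Other markers of myeloid cells, the best known source of calprotectin, were low. The summed FPKM of 10 myeloid genes was 7.79 and 7.58 in BT-20 against 37.5 and 38.2 in MDA-MB-468, and 4 of the 10 were listed at 0 in each library. Within each line the myeloid sum was nearly level between the shRNAs, although CSF3R had 13.5 and 5.34 and CD14 had 15.4 and 26.1 in MDA-MB-468. AIF1 was at 0 in every library, and PTPRC, the pan-leukocyte marker CD45, did not exceed 0.34. The gut and plasma cell sums were lower with QPRT shRNA in both lines, as were S100A8 and S100A9 in MDA-MB-468 but not in BT-20. The part of those transcripts in the calprotectin values was not tested.

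S100A2 had 25 and 43 fragments in BT-20 against 93 and 359 in MDA-MB-468. In MDA-MB-468 it was 4.09-fold higher with QPRT shRNA (log2(FPKM + 1) ratio 1.95, interval of the fragment ratio 1.70 to 2.38). In BT-20 the ratio was 0.61, and the interval reached 0. S100A4, with 33 and 79 fragments in BT-20 against 996 and 1303 in MDA-MB-468, had ratios of 1.08 (0.62 to 1.85) and 0.47 (0.35 to 0.59), higher with QPRT shRNA in both. In BT-20 with QPRT shRNA, S100A2 was at 18.2% and S100A4 at 6.67% of the MDA-MB-468 level, and the part of MDA-MB-468 transcripts in the higher S100A4 was not tested.

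S100A6 was 1.74-fold higher with QPRT shRNA in BT-20 (log2 ratio 0.80, interval 0.71 to 0.89). In MDA-MB-468 the ratio was 0.056, with an interval of 0.00096 to 0.11, and it turned to -0.11 when the trend of ratios on GC content and transcript length was removed. S100A10 and S100A11 were lower with QPRT shRNA in both lines, a pattern whose share among all genes is not given here. S100A10 had ratios of -0.42 (-0.49 to -0.36) and -0.25 (-0.34 to -0.16), and S100A11 had -0.34 (-0.39 to -0.29) and -0.36 (-0.42 to -0.30), all short of 2-fold. S100A14 (0.13 and -0.18) and S100A16 (0.24 and -0.079) differed little and in opposite directions. In all, 5 of the 10 genes had opposite directions in the lines, beside 54.6% of all genes. The ratios of the lines were at least 1 log2 unit apart for 4 of the 10 (S100A2, S100A7, S100A8 and S100A9), beside 5.7% of all genes.

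**Figure D3:**
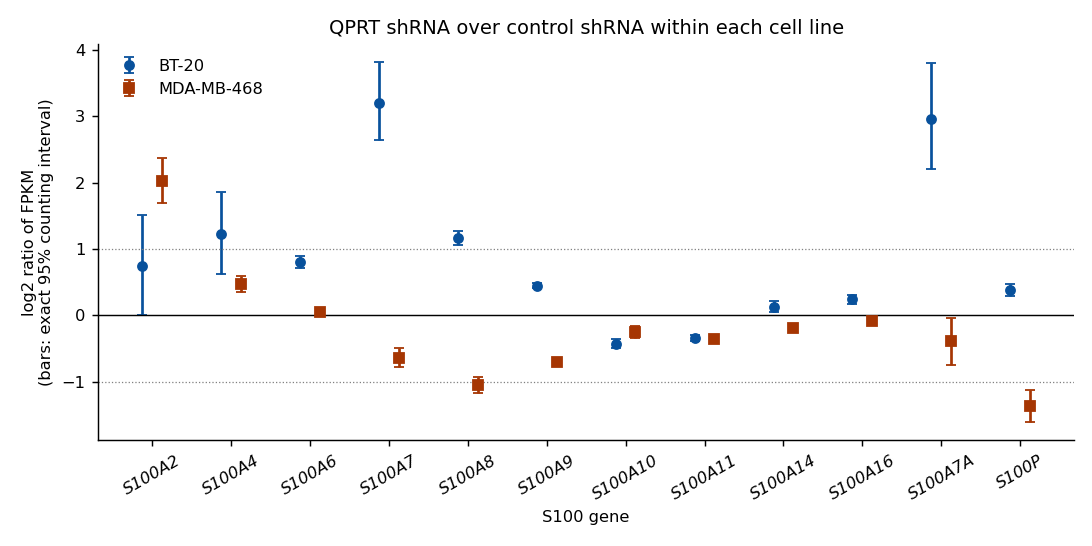
log2 ratio of FPKM, QPRT shRNA over control shRNA, in BT-20 (blue circles) and MDA-MB-468 (orange squares) for the 10 S100 genes and for S100A7A and S100P, with exact 95% counting intervals; dotted lines mark 2-fold. S100A7 and S100A8 lie above 1 in BT-20 and below 0 in MDA-MB-468, S100A2 is the only one above 1 in MDA-MB-468, and S100A10 and S100A11 are below 0 in both.

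Over both lines, limma, in which the line was a block, found 3 of the 10 genes higher with QPRT shRNA and 0 lower at an adjusted p under 0.05, beside 0.265% and 0.363% of all genes tested. S100A2 had a log2 difference of 1.28 ± 0.25 (SE, 2 libraries a group; limma adjusted p = 0.000138), S100A7 of 1.18 ± 0.21 (limma adjusted p = 1.21e-05) and S100A4 of 0.78 ± 0.22 (limma adjusted p = 0.0495). For S100A7 this mean joins a higher value in BT-20 and a lower value in MDA-MB-468, since the spread shared across genes does not register that its lines disagree. With the residual spread of each gene alone the SE for S100A7 was 1.82 (limma adjusted p = 1.00), and limma-voom on recovered fragments gave 0.46 (adjusted p = 1.00). S100A2 passed in limma-voom too (1.69, adjusted p = 0.000807), but not without the filter on low values, without the block or with its own residual spread (limma adjusted p = 1.00 each), nor with the trend on GC content and length subtracted (limma adjusted p = 0.691). S100A4 passed in no alternative except a pseudocount of 0.1 (limma adjusted p = 0.0270). S100A6 had a limma adjusted p of 0.801, and the remaining 6 genes had limma adjusted p of 1.00.

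Ratios of QPRT shRNA over control shRNA were also set out in gene order along chromosome 1, with no test of position. Of the 13 S100 genes tested from S100A9 to S100A1, 13 had a ratio above 0 in BT-20, as had 56.4% of all genes, with a median of 0.63, while S100A10 and S100A11, which lie apart, were below 0 and S100P, on chromosome 4, was above 0. The 13 include the pairs S100A7 with S100A7A, which share sequence, and S100A1 with S100A13, whose exons overlap. In MDA-MB-468, 7 of the 13 were above 0 and 6 below. The counts were 13 and 7 above 0 with upper quartile and TPM scaling as well. S100A1, S100A3 and S100A12 rested on at most 14 fragments in a BT-20 library, and S100A3 on 0 and 1. In BT-20 with QPRT shRNA, S100A3 was at 0.971% of its MDA-MB-468 level. The part of MDA-MB-468 transcripts in the BT-20 ratios was not tested. The 26 other protein-coding genes tested within 500 kb of the S100 genes ranged from -1.01 to 0.38 in BT-20 against -0.94 to 0.63 in MDA-MB-468, with medians of -0.037 and -0.11. On log2(FPKM + 1), only THEM5 of these neighbours, an acyl-CoA thioesterase gene, differed 2-fold, lower in BT-20, and none passed in limma over both lines. The count at 2-fold on that scale was 0 higher and 1 lower in BT-20 against 0 and 0 in MDA-MB-468. IVL was 2.38-fold lower in FPKM with QPRT shRNA in MDA-MB-468, but short of 2-fold on that scale.

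**Figure D4:**
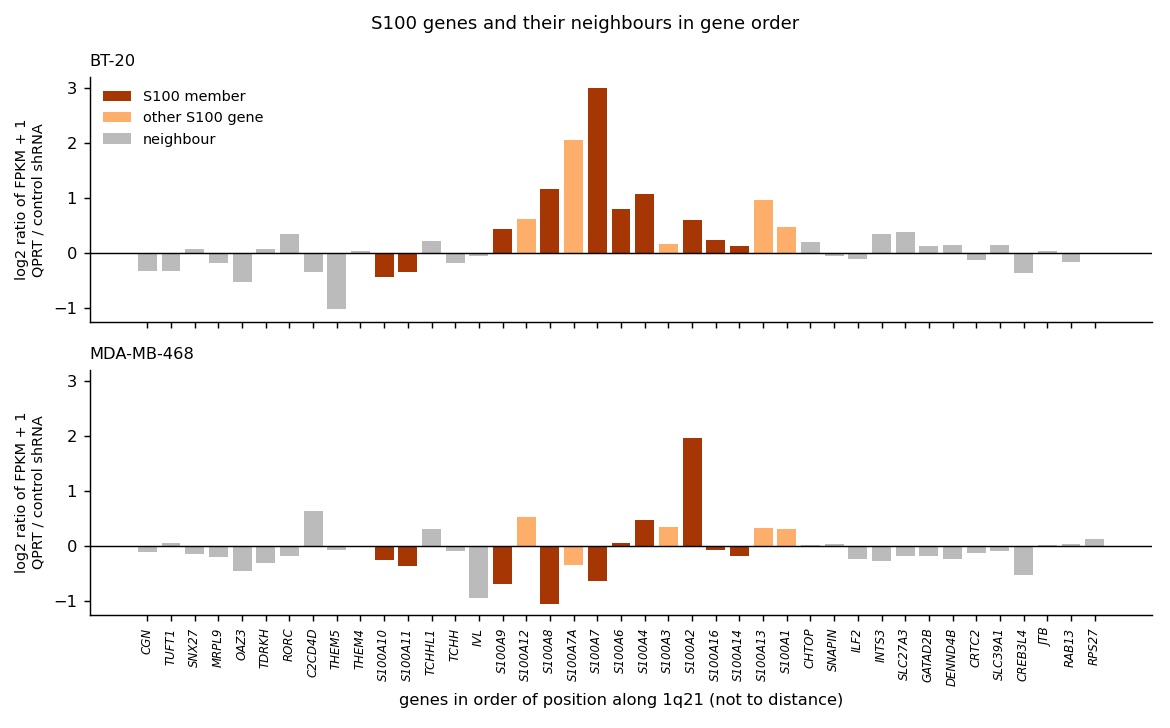
log2 ratio of FPKM + 1, QPRT shRNA over control shRNA, for S100 genes (brown, the 10 genes described; orange, other S100 genes) and for 26 neighbouring genes (grey), in their order along the chromosome, in BT-20 (top) and MDA-MB-468 (bottom). In BT-20 every S100 gene from S100A9 to S100A1 is above 0, with S100A7 at 3.0, and in MDA-MB-468 S100A2 stands out at 1.95.

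Of 11 other S100 genes, 6 had a mean FPKM of at least 1. S100P, which lies on chromosome 4 and is a RAGE ligand of gut and other epithelia, had an FPKM of 203 and 265 in BT-20 against 59.5 and 23.1 in MDA-MB-468. It was higher with QPRT shRNA in BT-20 (ratio 0.38) and 2.57-fold lower in MDA-MB-468 (ratio -1.33), and its limma difference between lines was -2.61 (adjusted p = 8.57e-37). The gut marker sum was lower with QPRT shRNA in both lines (31.8 and 13 in BT-20 against 80.7 and 16.9 in MDA-MB-468), and its part in the S100P values was not tested. S100A13 had 2.70 and 6.19 in BT-20 against 11.5 and 14.6 in MDA-MB-468, and its exons overlap those of S100A1. S100A3 had 0 and 1 fragment in BT-20 against 90 and 110 in MDA-MB-468. S100A1 (0.693 to 2.75) and S100A12 (0.353 to 1.95) were near the limit. None of the 6 passed in limma for QPRT shRNA, S100A7A coming nearest at 0.85 (adjusted p = 0.189), and between lines 4 were higher in MDA-MB-468 (S100A1, S100A3, S100A7A and S100A13) and 1 lower (S100P), beside 30.7% and 24.4% of all genes. S100A7L2, S100B and S100Z were listed at 0 throughout, as were all 10 S100 pseudogenes in the table.

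Of 20 partners and receptors of S100 proteins, 17 were tested. Within the lines 1 was at least 2-fold higher on log2(FPKM + 1), ANXA1 in BT-20, and none was at least 2-fold lower. ANXA1 encodes annexin A1, the partner of S100A11, and had an FPKM of 17.5 and 90.7 in BT-20 against 262 and 232 in MDA-MB-468. Its ratios were 2.31 in BT-20 against -0.17 in MDA-MB-468, and it was the only one of the 17 to pass in limma over both lines (1.07, adjusted p = 6.17e-05). S100A11 stood at 69.3 times ANXA1 in BT-20 with control shRNA, at 10.6 times with QPRT shRNA, and at 3.68 and 3.23 times in MDA-MB-468. ANXA2, the partner of S100A10, had 1448 and 1296 in BT-20 against 1235 and 1238 in MDA-MB-468, so that S100A10 stood at 0.490, 0.408, 0.252 and 0.211 of ANXA2 in FPKM. ANXA2 differed less between the libraries than S100A10 did.

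The partners AHNAK, MYH9, CACYBP and SUGT1, named for their known binding, and the receptor gene AGER were below 2-fold between the shRNAs of a line. AHNAK, the scaffold bound by S100A10 and annexin A2, had 138 and 189 in BT-20 against 158 and 185 in MDA-MB-468. MYH9, the myosin heavy chain bound by S100A4, had 808 and 828 in BT-20 against 996 and 768 in MDA-MB-468. For the S100A6 partners, CACYBP had 95.5 and 112 in BT-20 against 152 and 128 in MDA-MB-468, and SUGT1 had 8.61 to 11.2 over the 4 libraries. Of the receptors, AGER, which encodes RAGE, had 5.67 to 7.90, and TLR4 was at 0.219 in BT-20 with control shRNA and at 0 in the other libraries. TLR4 was below the filter on low values, with 12 fragments in BT-20 with control shRNA and 0 with QPRT shRNA, and was not judged. Between the lines, 6 of the 17 passed in limma, all higher in MDA-MB-468 (ANXA1, ANXA6, ANXA11, ALCAM, PLAU and S100PBP), beside 30.7% of all genes called higher. Among them ALCAM had 3.32 and 5.13 in BT-20 against 49.3 and 51.8 in MDA-MB-468, and PLAU had 0.296 and 0.144 against 18.8 and 21.2.

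Genes of epidermal differentiation, which adjoin the S100 genes or share their role in keratinocytes, were mostly low. KLK5 was an exception, with an FPKM of 270 to 392 over the 4 libraries, and KRT10 had 31.4 to 42.0. Of 18 listed, 7 were tested. On log2(FPKM + 1), KRT13 was 2-fold higher and TGM1 2-fold lower with QPRT shRNA in BT-20, and none differed 2-fold in MDA-MB-468. IVL, the involucrin gene next to S100A9 among the genes tested, had 21.6 and 20.8 in BT-20 against 4.71 and 1.98 in MDA-MB-468. In MDA-MB-468 its FPKM was 2.38-fold lower with QPRT shRNA, a log2(FPKM + 1) ratio of -0.94. CALML5 had 0.877 and 1.49 in BT-20 against 147 and 148 in MDA-MB-468. None of the 7 passed in limma for QPRT shRNA, and between lines 2 were higher (TGM1 and CALML5) and 2 lower (IVL and KRT13) in MDA-MB-468, near the 30.7% and 24.4% of all genes. Of 7 fused-type S100 genes, which carry S100 domains joined to long repeats, only TCHH and TCHHL1 were tested, and neither passed for QPRT shRNA.

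For the 8 genes whose highest library was at least 2 times their lowest, the genes of most like profile over the 4 libraries were sought among 10408 others, as the smallest Euclidean distance between centred log2(FPKM + 1) values. S100A7 was nearest to ANXA1 (distance 0.85) and KYNU (1.28), the kynureninase gene, which had an FPKM of 3.0 and 13.7 in BT-20 against 38.0 and 33.0 in MDA-MB-468. S100A8 was nearest to ABCA12 (0.37), a lipid transporter of keratinocytes, and PLD1 (0.38), and S100A4 to TRIM29 (0.47) and FGFR1 (0.47). S100A2 was nearest to FBXO2 (0.77) and RGS2 (0.82), S100A6 to CASP8AP2 and DUSP6 (0.10 each), S100A10 to VGLL1 (0.051) and WHRN (0.060), and S100A14 to TWSG1 (0.026) and a gene without a symbol (0.028). Among the members the closest pairs were S100A6 with S100A14 (0.50), S100A14 with S100A16 (0.65) and S100A8 with S100A9 (0.68). With 4 libraries these distances are descriptions.

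**Figure D5:**
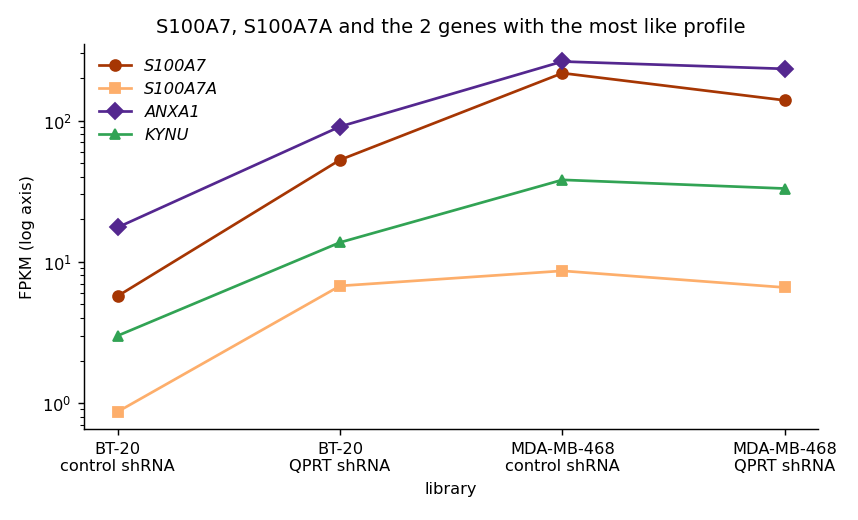
FPKM on a log axis of S100A7, S100A7A and the 2 genes nearest to S100A7, ANXA1 and KYNU, in the 4 libraries. All 4 genes are lowest in BT-20 with control shRNA, where ANXA1 is at 17.5 and S100A7 at 5.72, and highest in MDA-MB-468 with control shRNA, where they are at 262 and 217.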

How the data were processed

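RNA-seq libraries of BT-20 and MDA-MB-468 cells with control or QPRT shRNA were prepared by the authors from total RNA with the Illumina TruSeq RNA kit. The submitters' processing notes name CASAVA, FastQC, MultiQC, TopHat2 2.0.12 and HTSeq 0.6.1; the genome build and annotation are not given in the sources used here. The authors deposited FPKM per gene, as 1 table for all libraries. Whether counting used strand is likewise not given. Lines and shRNAs were taken from the column names and sample titles.

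Coordinates, gene types and transcript lengths came from GENCODE 29, and symbols came from a separate list of gene names matched by Ensembl identifier. Of 50653 rows, 27 with a repeated symbol were dropped, and 14321 genes whose mean FPKM was at least 1 were tested. FPKM times mean transcript length gave whole fragments, within 0.02, for 87.3% to 87.6% of values above 0 and for all 10 S100 genes described. Depth was 10321996 to 10945948 fragments. Intervals were exact Clopper-Pearson 95% intervals of fragment ratios; they cover counting error only, since fragments were not tagged with molecular identifiers. Within a line a gene counted as changed at 2-fold on log2(FPKM + 1), which understates the change of low genes. Over all 4 libraries limma 3.58.1 (R 4.3.3) was fitted with line and shRNA as terms, eBayes with a trend and Benjamini-Hochberg adjustment; the lines stand in for replicates. Nothing states that libraries came from separate cultures. The p-values rest on the spread shared across genes in these 4 libraries, not on each gene's own spread or on a spread between cultures. In simulated data, 200 of 14232 genes were changed 4-fold. For the QPRT shRNA comparison over both lines 100% were recovered, with 5.7% false calls, and for the comparison of lines 100%, with 17.4%. Among the 9755 genes with at least 500 fragments in all, false calls were 0% and 2.9%. The changed genes were drawn from genes well counted in both lines. The random spread was a set value, and the change with QPRT shRNA was the same in both lines. S100A2 and S100A4 had too few fragments in BT-20 to be drawn, and S100A7 differed in opposite directions in the lines. The recovery therefore does not describe these genes.

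The members, gene lists and tests were chosen with earlier results of these data known. All 10 members were named, as were other S100 genes that passed that filter. Of the partner, neighbour and epidermal lists, genes at 2-fold in either line and a few set partners were named. IVL, CALML5, KLK5, KRT10 and genes named for a call between the lines were added after their values were seen. Alternatives were a pseudocount of 0.1, upper quartile and TPM scaling, other filters, subtraction of a lowess trend on GC content and length, no block, no trend, limma-voom, and each gene's own spread, the last added after the data were seen. The genes of most like profile to S100A9 are not reported here.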

Additional observations from a re-analysis of the deposited data

Results flagged for a closer look

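In 5 of the 10 genes and in 2 other S100 genes, the log2 ratio of QPRT shRNA over control shRNA went one way in BT-20 and the other way in MDA-MB-468. With 1 library in each group these differences between the lines were not tested, and 54.6% of all genes tested also had opposite directions.

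The difference, MDA-MB-468 minus BT-20, was -3.63 log2 units for S100A7 and -2.40 for its near copy S100A7A. For the calprotectin genes it was -2.22 for S100A8 and -1.15 for S100A9. S100P, on another chromosome, differed by -1.71. The difference was -0.32 for S100A14 and likewise -0.32 for S100A16. A difference of at least 1 in size was seen in 4 of the 10 genes and in 5.7% of all genes tested.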

How the results depend on the processing

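Within the lines, the counts of S100 genes at the threshold held under the alternatives except a 1.5-fold threshold, which raised the number higher in BT-20 from 3 to 5, beside 5.7% of all genes, and the number lower in MDA-MB-468 from 1 to 3, beside 3.71%. Of the ratios of single genes, 12 moved beyond their counting intervals, 11 of them when the GC and length trend was subtracted, and only that of S100A6 in MDA-MB-468 changed sign. Over both lines, the number higher with QPRT shRNA was 3, and it was 0 without a filter on low values, without the block, with the trend on GC content and length removed and with each gene's own spread, 1 with limma-voom, 2 with upper quartile scaling, TPM scaling, a mean FPKM of at least 5 or no eBayes trend, and 3 with a pseudocount of 0.1. Over all genes, limma called 90 genes for QPRT shRNA (687 at an unadjusted p under 0.05), and 0 without a filter (813), 0 without the block (17), 0 with each gene's own spread (565), 1 with the GC and length trend removed and 45 at a mean FPKM of at least 5. Between the lines, 6 higher and 2 lower became 0 and 0 without a filter and with each gene's own spread, where none of all genes passed (7482 and 2931 at an unadjusted p under 0.05). S100A8 passed with upper quartile scaling (limma adjusted p = 0.0421) and S100A11 with the GC and length trend removed (limma adjusted p = 0.0213). Without the filter the shared spread carries less weight, with a prior of 0.937 degrees of freedom. The cause of the other changes was not tested. No library could be left out, since 1 library makes a group and the fit would keep 0 residual degrees of freedom. The line served as the block, which pairs the control and QPRT shRNA libraries of each line. No further pairing was possible because the labels give no replicate numbers shared by separate libraries. Genes with few fragments, such as S100A2 in BT-20, have the widest intervals.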
